A study of Mus musculus with 6 samples.

Results

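The leptin receptor stromal niche genes are 10 genes that mark, or act in, the reticular stromal cells around the vessels of bone marrow. They were chosen by symbol (Lepr, Kitl, Ebf3, Foxc1, Pdgfra, Pdgfrb, Il7, Angptl1, Nes and Prrx1), and all 10 were found, once each, among 55484 genes in tables of femoral bone. All 10 were among the 15508 genes that the authors tested. The 6 libraries hold femoral RNA of male C57BL/6 mice of wild-type genotype. There were 3 libraries from mice with free access to a running wheel (WCR) and 3 from sedentary mice in cages without a wheel (SED). All mice ate normal chow (ND), entered the groups at 6 weeks of age, were housed singly for 6 weeks and were 12 weeks old at collection. The sources used here do not state whether marrow was flushed from the bones.

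Bone marrow stroma holds perivascular cells that carry the leptin receptor and secrete the chemokine CXCL12, stem cell factor (the product of Kitl) and interleukin-7. These factors keep haematopoietic stem cells and B cell progenitors in place and alive. The transcription factors Ebf3 and Foxc1 maintain this state in mouse marrow, Prrx1 marks limb mesenchyme, and the PDGF receptors and nestin are used to mark stromal and perivascular cells. LepR+ cells are also a source of marrow adipocytes and of osteoblasts in adult mice.

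The promoter windows of the called gene Lepr, and of the members whose window held a searched motif, are printed here as RefSeq gives them for GRCm38.p6, from 250 bases before to 50 after an annotated start. RefSeq windows were found for 8 of the 10 genes, all but Il7 and Pdgfrb, and Lepr had a window at each of its annotated starts. Capitals mark a match on either strand to the EBF core CCCNNGGG, the forkhead core TAAACA, the homeodomain core TAATTA, the STAT core TTCNNNGAA or the TATA box TATAAA.
Lepr, upstream start, chr4:101717157-101717456, plus strand: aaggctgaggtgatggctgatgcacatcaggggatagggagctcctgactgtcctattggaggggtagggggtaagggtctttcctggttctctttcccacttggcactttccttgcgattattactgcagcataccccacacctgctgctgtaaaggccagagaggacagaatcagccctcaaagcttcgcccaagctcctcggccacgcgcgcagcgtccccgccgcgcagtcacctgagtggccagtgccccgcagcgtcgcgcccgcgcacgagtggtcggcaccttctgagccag
Lepr, downstream start, chr4:101717656-101717955, plus strand: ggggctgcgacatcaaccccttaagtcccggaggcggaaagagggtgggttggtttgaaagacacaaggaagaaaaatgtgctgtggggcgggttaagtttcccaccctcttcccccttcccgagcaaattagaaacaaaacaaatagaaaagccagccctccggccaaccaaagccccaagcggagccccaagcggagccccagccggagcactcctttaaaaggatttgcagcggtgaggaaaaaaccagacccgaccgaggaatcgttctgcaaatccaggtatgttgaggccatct
Kitl, chr10:100015571-100015870, plus strand: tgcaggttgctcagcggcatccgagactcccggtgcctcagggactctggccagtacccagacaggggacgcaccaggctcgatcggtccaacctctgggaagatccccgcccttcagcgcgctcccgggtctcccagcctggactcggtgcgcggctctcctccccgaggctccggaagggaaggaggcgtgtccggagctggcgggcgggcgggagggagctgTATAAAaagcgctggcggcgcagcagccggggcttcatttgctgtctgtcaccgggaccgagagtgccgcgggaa
Ebf3, chr7:137314396-137314695, minus strand: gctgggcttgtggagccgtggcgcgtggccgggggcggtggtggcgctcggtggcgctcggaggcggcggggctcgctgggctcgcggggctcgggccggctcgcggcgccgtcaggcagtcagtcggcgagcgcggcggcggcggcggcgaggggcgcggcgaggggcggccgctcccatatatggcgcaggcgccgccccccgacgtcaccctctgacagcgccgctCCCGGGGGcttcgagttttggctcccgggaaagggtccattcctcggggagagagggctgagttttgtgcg
Prrx1, chr1:163313601-163313900, minus strand: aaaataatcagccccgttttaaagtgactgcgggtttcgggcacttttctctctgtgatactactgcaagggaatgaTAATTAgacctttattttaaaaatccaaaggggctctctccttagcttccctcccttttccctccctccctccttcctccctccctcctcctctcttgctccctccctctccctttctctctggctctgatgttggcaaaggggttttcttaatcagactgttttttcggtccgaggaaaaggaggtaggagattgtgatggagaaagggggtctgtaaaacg
Among the 9 windows of the niche genes, the EBF core stood once, in the window of Ebf3, which encodes an EBF factor, and the homeodomain core once, in that of Prrx1, which encodes a homeodomain factor. The TATA box stood in the window of Kitl, just before the annotated start. Over all 32851 mouse windows, 13.7% held the EBF core, 5.29% the homeodomain core, 13.6% the TATA box, 13.4% the forkhead core and 8.3% the STAT core. The forkhead and STAT letters were not found in any of the 9 windows. The Ebf3 window had a GC content of 77.0% with 46 CpG, against a median of 52.7% and 7 CpG over all windows. The windows of Lepr had a GC content of 61.3% and 54.3%.

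Every value below is 1 pooled value per group in FPKM (fragments per kilobase, scaled for the depth of the libraries), the authors' group value for 3 mice, with the authors' interval in brackets. No value of a single mouse was at hand, so no spread between mice can be computed. The half-width of the authors' interval behaved as 2 standard errors: the deposited test statistic equalled the deposited log2 fold over the standard error so obtained, within 0.1%, in 15488 of 15490 genes. Log2 folds are WCR over SED, computed here from FPKM + 0.1, which understates the change of low genes, and are given with that standard error (SE). A gene was called at a q under 0.05 in the authors' deposited table. Steps in the lowest values, each the worth of 1 fragment, gave effective depths that sum to about 48400000 fragments in WCR and 45300000 in SED, provided that a group value averages 3 scaled libraries. In bulk bone RNA, more cells of a type and more RNA per cell cannot be told apart.

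Lepr had a higher pooled value in the running mice and was the only niche gene called, at a q of 0.0478, just under the threshold. All 10 niche genes had a log2 fold above 0, with a median of 0.21, whereas the median over all tested genes was -0.007. Over all tested genes 48.2% had a fold above 0 and 0.941% were called, 0.445% higher and 0.497% lower. Under other rules the share called was 1.23% with q under 0.1, 0.696% with q under 0.01, 1.04% with q adjusted over genes with FPKM of at least 1, and 0.161% with the deposited statistic read as a normal score. Without adjustment, p in the authors' deposited table was under 0.05 and the fold positive for 3 of the 10 (Lepr, Kitl and Pdgfra), against 3.42% of all tested genes. The 10 genes were chosen with earlier results of these data known, and no test of these shares was made. No deposited statistic among the 10 exceeded 1.79, and the intervals of WCR and SED overlapped for every one of them. Intervals apart were rare in general, at 0.574% of tested genes.

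**Figure D1:**
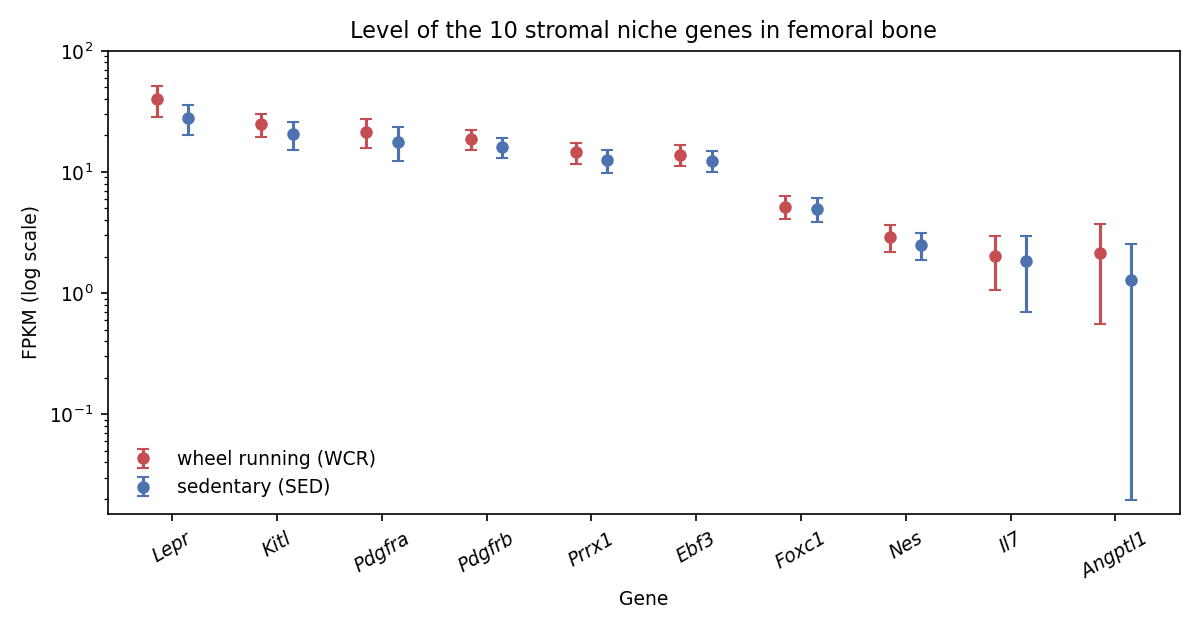
Group values of the 10 niche genes in FPKM on a log axis, with wheel running (red) left of sedentary (blue) for each gene; points are the authors' pooled values and bars their intervals. Each red point lies above its blue partner and each pair of bars overlaps, from Lepr, at 39.7 FPKM in WCR and 27.9 FPKM in SED, down to Angptl1, at 2.15 FPKM in WCR and 1.28 FPKM in SED.

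Among the receptors, Lepr had the highest level. Lepr (ENSMUSG00000057722; chromosome 4, 101717404 to 101815352, plus strand, GRCm38) encodes the leptin receptor, a cytokine receptor that signals through JAK2 and STAT3. Its level was 39.7 FPKM (28.4 to 51.0) in WCR and 27.9 FPKM (20.3 to 35.5) in SED, a 1.42-fold difference. The WCR value lies above the upper bound of the SED interval, and the SED value just under the lower bound of the WCR interval, while the intervals themselves overlap. The log2 fold was 0.51 ± 0.28 (SE), and 2 SE on each side span folds of 0.959 to 2.10. In the authors' deposited table the p was 0.00045 and the q 0.0478, the highest q of all 146 called genes. The deposited statistic of Lepr was 1.79, which read as a normal score would give a two-sided p of 0.0741. Over the tested genes, however, the deposited statistic had a standard deviation of 0.62, narrower than that of a standard normal score. Lepr is among 10 called genes whose statistic is under 1.96 in size, the normal value for a p of 0.05, and the sources used here do not say how the deposited p was obtained. A log2 fold at least as high as that of Lepr was found in 3.80% of tested genes.

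The annotation gives Lepr 7 transcripts, 4 of them coding and with a longest coding transcript of 5542 bases in 19 exons, and the gene value sums over them, so that long and short receptor forms are not separated. At that length its levels correspond to about 10200 fragments in WCR and 6690 in SED. Counting error alone would then be 0.993% of the level in WCR and 1.22% in SED, while the authors' SE was 14.3% in WCR and 13.6% in SED.

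Pdgfra (ENSMUSG00000029231; chromosome 5, 75152292 to 75198215, plus strand) and Pdgfrb (ENSMUSG00000024620; chromosome 18, 61045150 to 61085061, plus strand) encode receptor tyrosine kinases for platelet-derived growth factors. Pdgfra stood at 21.4 FPKM (15.7 to 27.1) in WCR and 17.8 FPKM (12.3 to 23.4) in SED. Its log2 fold of 0.26 ± 0.29 (SE) had a p of 0.0438 and a q of 0.852 in the authors' deposited table. Pdgfrb stood at 18.6 FPKM (15.1 to 22.1) in WCR and 16.1 FPKM (13.0 to 19.1) in SED. Its log2 fold was 0.21 ± 0.19 (SE), with a p of 0.0556 and a q of 0.921 in the authors' deposited table. The deposited statistic was 0.893 for Pdgfra and 1.1 for Pdgfrb, so that the smaller p went with the smaller statistic. Neither receptor was called, and for each the group values lie inside the other group's interval. The ratio of Pdgfra to Pdgfrb per length was 1.15 in WCR and 1.11 in SED. Antisense or unclassified genes share 456 and 166 exon bases with Pdgfra on the other strand, and both were under 0.5 FPKM in WCR and in SED.

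The secreted factors followed. Kitl (ENSMUSG00000019966; chromosome 10, 100015630 to 100100416, plus strand) encodes stem cell factor, the ligand of the receptor KIT on haematopoietic stem and progenitor cells, and had the highest level after Lepr. It stood at 24.7 FPKM (19.5 to 29.9) in WCR and 20.5 FPKM (15.3 to 25.7) in SED. Each group value lay within the other group's interval. The log2 fold was 0.27 ± 0.24 (SE), spanning folds of 0.870 to 1.67 at 2 SE, with a p of 0.0296 and a q of 0.724 in the authors' deposited table. A fold at least as high was found in 11.3% of tested genes. Membrane-bound and soluble forms of stem cell factor come from different transcripts and are summed in this value.

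Il7 (ENSMUSG00000040329; chromosome 3, 7569994 to 7613760, minus strand) encodes interleukin-7, a survival factor of B and T cell progenitors. It stood at 2.02 FPKM (1.07 to 2.97) in WCR and 1.84 FPKM (0.703 to 2.98) in SED, with a log2 fold of 0.12 ± 0.53 (SE) and a p of 0.669 in the authors' deposited table. Folds of 0.521 to 2.28 lie within 2 SE, a range too wide to show a change of modest size. The authors' locus for Il7 runs on to 7690001, past the annotated end of the gene. The antisense gene Gm16685, with which Il7 shares 105 exon bases, was listed at 0.692 FPKM in WCR and 0.987 FPKM in SED. The sources used here do not say if strand was used in counting.

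Angptl1 (ENSMUSG00000033544; chromosome 1, 156838562 to 156861078, plus strand) encodes a secreted angiopoietin-like protein. It had the largest log2 fold of the 10 and, as a share of its level, the widest intervals, with half-widths of 74.2% in WCR and 98.5% in SED. Its level was 2.15 FPKM (0.555 to 3.75) in WCR and 1.28 FPKM (0.0195 to 2.54) in SED. The log2 fold of 0.71 ± 0.83 (SE) was smaller than its own error, with a p of 0.140 in the authors' deposited table. Angptl1 lies inside the gene Ralgps2 on the other strand, and the authors' locus for it covers Ralgps2 as well. The 2 genes share no exon base, and Ralgps2 stood at 14.8 FPKM in WCR and 15 FPKM in SED. The unclassified gene Gm37802 shares 465 exon bases with Angptl1 on the other strand and was at 0.157 FPKM in WCR and in SED. With its longest coding transcript of 2651 bases, Angptl1 would rest on about 249 fragments in WCR and 139 in SED. The counting error of these would be 6.33% in WCR and 8.48% in SED, against an SE of the authors of 37.1% in WCR and 49.2% in SED.

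The transcription factors had small folds, with intervals that were narrow for their levels. Prrx1 (ENSMUSG00000026586; chromosome 1, 163245119 to 163313710, minus strand), a homeobox gene of limb mesenchyme, stood at 14.5 FPKM (11.6 to 17.3) in WCR and 12.5 FPKM (9.78 to 15.2) in SED. Ebf3 (ENSMUSG00000010476; chromosome 7, 137193673 to 137314445, minus strand), which keeps reticular cells from turning to bone in mouse marrow, stood at 13.9 FPKM (11.1 to 16.6) in WCR and 12.4 FPKM (9.90 to 14.9) in SED. Foxc1 (ENSMUSG00000050295; chromosome 13, 31806633 to 31812476, plus strand), a forkhead gene required to form the reticular niche in mice, stood at 5.17 FPKM (4.05 to 6.30) in WCR and 4.96 FPKM (3.87 to 6.05) in SED. In all 3 genes the WCR and SED values were closer to each other than the half-width of either interval.

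The log2 folds were 0.21 ± 0.21 (SE) for Prrx1, 0.16 ± 0.20 for Ebf3 and 0.06 ± 0.22 for Foxc1. Their p in the authors' deposited table was 0.0846, 0.161 and 0.640, in that order. Foxc1 has 1 exon of 5844 bases and 1 transcript, so its fragment number does not depend on isoforms. Its levels correspond to about 1400 fragments in WCR and 1260 in SED. The fold of Foxc1 was the lowest of the 10, and a fold between 0.769 and 1.41 lies within 2 SE. The gene Gm45278, antisense to Ebf3 with 355 shared exon bases, was at 0.0916 FPKM in WCR and 0.0295 FPKM in SED.

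Nes (ENSMUSG00000004891; chromosome 3, 87971078 to 87980451, plus strand) encodes nestin, an intermediate filament protein of neural progenitors that is also used to mark perivascular stromal cells in marrow. It stood at 2.93 FPKM (2.2 to 3.66) in WCR and 2.51 FPKM (1.87 to 3.16) in SED. Its log2 fold was 0.21 ± 0.25 (SE), with a p of 0.133 in the authors' deposited table, and the intervals overlapped over most of their length. Endothelium, muscle and nerve also express nestin.

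**Figure D2:**
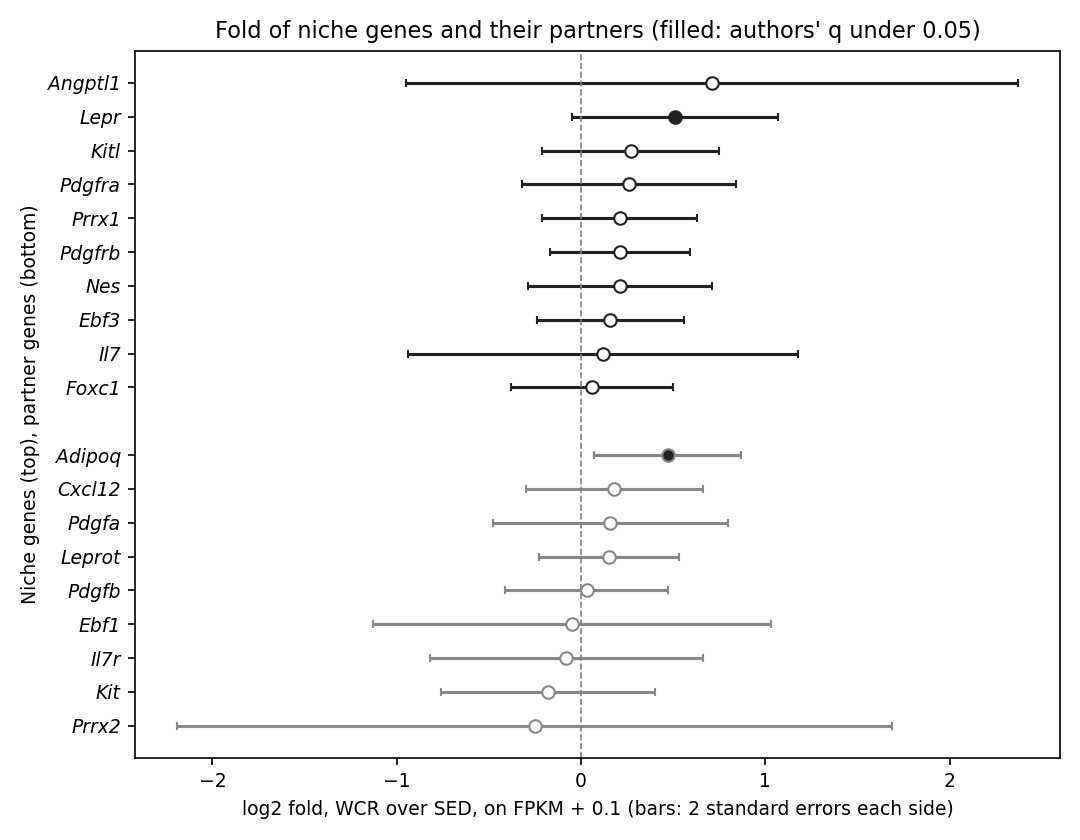
Log2 fold of wheel running over sedentary mice on the FPKM + 0.1 scale (horizontal axis) for the niche genes, above, and 9 partner genes, below, each ordered by fold; bars span 2 SE on each side and filled points have q under 0.05 in the authors' deposited table. The 10 niche genes all lie right of 0, Lepr is filled, and every bar of a niche gene crosses 0.

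In both groups the order of the levels ran Lepr, Kitl, Pdgfra, Pdgfrb, Prrx1, Ebf3, Foxc1 and Nes. In SED, Il7 followed and Angptl1 was last, whereas in WCR Angptl1 stood above Il7. Neighbours in the order had overlapping intervals except at 2 places, which were the same in WCR and SED: Ebf3 stood clear of Foxc1, and Foxc1 clear of Nes. Highest and lowest levels differed 19.7-fold in WCR and 21.8-fold in SED. The mean level of Lepr lay at percentile 81.0 of the tested genes, those of the PDGF receptors at 67.7 and 64.4, that of Foxc1 at 33.5 and that of Angptl1 at 15.9.

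**Figure D3:**
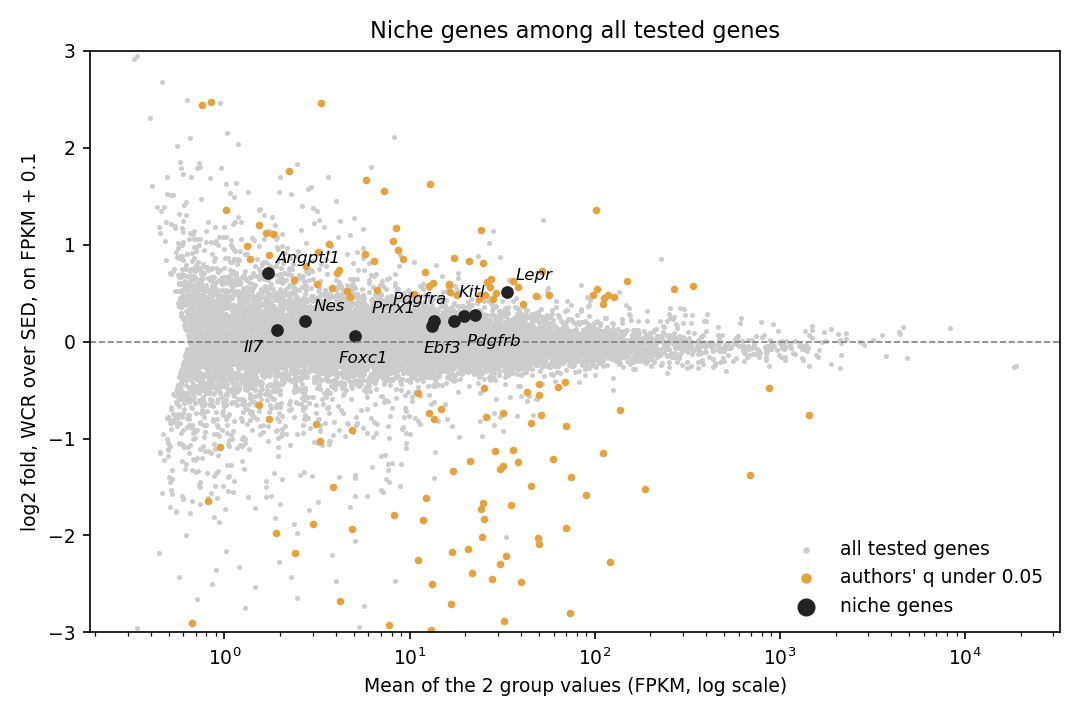
Log2 fold of wheel running over sedentary mice on the FPKM + 0.1 scale (vertical axis) against the mean of the group values (log axis, FPKM) for the genes that the authors tested (grey), with the calls in orange and the niche genes in black. Lepr lies at the upper edge of the grey cloud for its level and the other niche genes inside it; 28 tested genes and 6 calls lie beyond the vertical range of 3 shown.

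Other genes of LepR+ reticular cells had folds of like size. Of 22 such genes, 18 had a fold above 0 and 2 were called higher, none lower, with a median log2 fold of 0.19. The shares over all tested genes were 48.2% above 0 and 0.445% called higher. Adipoq, the adiponectin gene, which reticular cells and adipocytes express, stood at 55.8 FPKM (44.9 to 66.7) in WCR, against 40.2 FPKM (32.0 to 48.4) in SED. Gas6, a ligand of the TAM receptor kinases, stood at 125 FPKM (102 to 148) in WCR, against 95.9 FPKM (78.4 to 113) in SED. The q in the authors' deposited table was 0.00718 for Adipoq and 0.0283 for Gas6, and for each the intervals of WCR and SED overlapped. Cxcl12, which encodes the chemokine that holds haematopoietic cells in the niche, was far more abundant than any niche gene, at 973 FPKM (745 to 1200) in WCR and 860 FPKM (662 to 1059) in SED. It was not called, with a log2 fold of 0.18 ± 0.24 (SE). Cxcl12 was 24.5 times the level of Lepr in WCR and 30.8 times in SED.

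Genes of leptin signalling other than the receptor were not called at the authors' q. Of 9 tested, 5 had a fold above 0 and the median log2 fold was 0.04. Leprot, a separate gene upstream of Lepr in the same orientation whose product limits surface leptin receptor, stood at 54.8 FPKM (44.5 to 65.1) in WCR and 49.2 FPKM (39.9 to 58.6) in SED. The level of Lepr was 0.724 of that of Leprot in WCR and 0.567 in SED. Socs3, a STAT3-induced inhibitor of leptin receptor signalling, was at 11.4 FPKM (8.61 to 14.2) in WCR and 15.7 FPKM (12.3 to 19.1) in SED. Its log2 fold of -0.46 ± 0.23 (SE) had a q of 0.0517 in the authors' deposited table, over the threshold, and a q of 0.0483, under it, when p was adjusted over genes with FPKM of at least 1. Lep itself, the leptin gene of adipocytes, was at 0.0995 FPKM in WCR and 0.160 FPKM in SED and was not tested by the authors.

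The receptor genes Kit, Il7r and Il2rg, whose products sit on blood cells, were not called. Kit, the receptor of stem cell factor, stood at 13.5 FPKM (10.4 to 16.6) in WCR and 15.3 FPKM (10.3 to 20.3) in SED, with a log2 fold of -0.18 ± 0.29 (SE). Il7r, the interleukin-7 receptor chain, stood at 21.6 FPKM (14.0 to 29.1) in WCR and 22.8 FPKM (14.1 to 31.5) in SED, with a log2 fold of -0.08 ± 0.37 (SE). Il2rg, the common gamma chain that pairs with it and was chosen after its values were seen, stood at 29.1 FPKM in WCR and 28.8 FPKM in SED, with a log2 fold of 0.01 ± 0.26 (SE). Whether these folds differ from those of Kitl and Il7 was not tested. Of 9 genes of KIT signalling, 3 had a fold above 0 (median -0.08). The phosphatase gene Ptpn6, both the most expressed and the one with the largest absolute fold, stood at 87.3 FPKM in WCR and 104 FPKM in SED. The log2 fold of Ptpn6 was -0.25 ± 0.22 (SE), with a p of 0.0244 and a q of 0.674 in the authors' deposited table. Of 10 genes of interleukin-7 and TSLP signalling, 3 had a fold above 0 (median -0.03). In that list the kinase gene Jak1 stood at 67.2 FPKM in WCR and 69.2 FPKM in SED, and the cytokine gene Tslp at 1.39 FPKM in WCR and 1.19 FPKM in SED. No gene of either list was called.

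Of 5 PDGF ligand and related genes, none was called and all 5 had a fold above 0 (median 0.16). Pdgfa, a ligand of PDGFRA, stood at 14.0 FPKM (9.66 to 18.3) in WCR and 12.5 FPKM (8.38 to 16.7) in SED. Pdgfb, which recruits pericytes through PDGFRB, stood at 12.0 FPKM (9.35 to 14.6) in WCR and 11.7 FPKM (9.15 to 14.3) in SED. Pdgfd had the largest fold of these ligands, at 10.4 FPKM in WCR and 8.54 FPKM in SED. All 8 tested genes of the angiopoietin and angiopoietin-like families had a fold above 0 (median 0.21), none was called, and 3 had p under 0.05 in the authors' deposited table. Angptl7 had the largest fold there, at 38.8 FPKM (28.1 to 49.5) in WCR and 17.5 FPKM (2.70 to 32.3) in SED, with a q of 0.605 in the authors' deposited table. The SED interval of Angptl7 is wide and reaches into that of WCR.

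Relatives of the niche transcription factors were not called. Ebf1, an EBF factor of both B cells and reticular cells, stood at 16.2 FPKM (7.66 to 24.7) in WCR and 16.7 FPKM (7.61 to 25.8) in SED. The ratio of Ebf3 to Ebf1 was 0.859 in WCR and 0.744 in SED. Foxc2 stood at 1.78 FPKM in WCR and 1.61 FPKM in SED, with upper bounds of 17.2 FPKM in WCR and 16.1 FPKM in SED, so that its level is not usefully known. Prrx2 stood at 0.671 FPKM (0 to 1.47) in WCR and 0.818 FPKM (0.0409 to 1.6) in SED. Prrx1 was 21.5 times the level of Prrx2 in WCR and 15.3 times in SED, ratios that are imprecise because the Prrx2 intervals are wide. Of the 11 tested genes of these families and other skeletal transcription factors, 7 had a fold above 0, none was called and the median was 0.08. Sp7, the osteoblast factor osterix, was the most expressed, at 36.5 FPKM in WCR and 32.3 FPKM in SED. Meox2, a mesodermal homeobox gene, had the largest fold, at 1.62 FPKM (0.946 to 2.28) in WCR and 1.01 FPKM (0.507 to 1.51) in SED.

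Filament, pericyte, skeletal stem cell and adhesion lists held no call at the authors' q. Of 5 tested intermediate filament genes 3 had a fold above 0 (median 0.18). Vim, the mesenchymal filament gene, stood at 354 FPKM in WCR and 359 FPKM in SED, and Des, the muscle filament gene, at 36.1 FPKM in WCR and 27.1 FPKM in SED, with a q of 0.0517 in the authors' deposited table and of 0.0483 when adjusted over genes with FPKM of at least 1. Of 10 pericyte and smooth muscle genes 9 had a fold above 0 (median 0.17). Rgs5 stood at 47.2 FPKM in WCR and 42.0 FPKM in SED, and Cspg4, the pericyte proteoglycan NG2, at 6.69 FPKM in WCR and 5.33 FPKM in SED. Of 12 tested periosteal and skeletal stem cell genes 10 had a fold above 0 (median 0.11). Fap stood at 76.7 FPKM in WCR and 61.5 FPKM in SED, the osteoclast protease gene Ctsk at 593 FPKM in WCR and 580 FPKM in SED, and Pdpn was listed at 0 in both. Of 10 adhesion and retention genes 7 had a fold above 0 (median 0.11), among them Spp1, osteopontin, at 1578 FPKM in WCR and 1416 FPKM in SED. The Notch ligand gene Dll1 was another, at 2.63 FPKM (0.664 to 4.59) in WCR and 1.66 FPKM (0 to 3.69) in SED, with wide overlap.

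**Figure D4:**
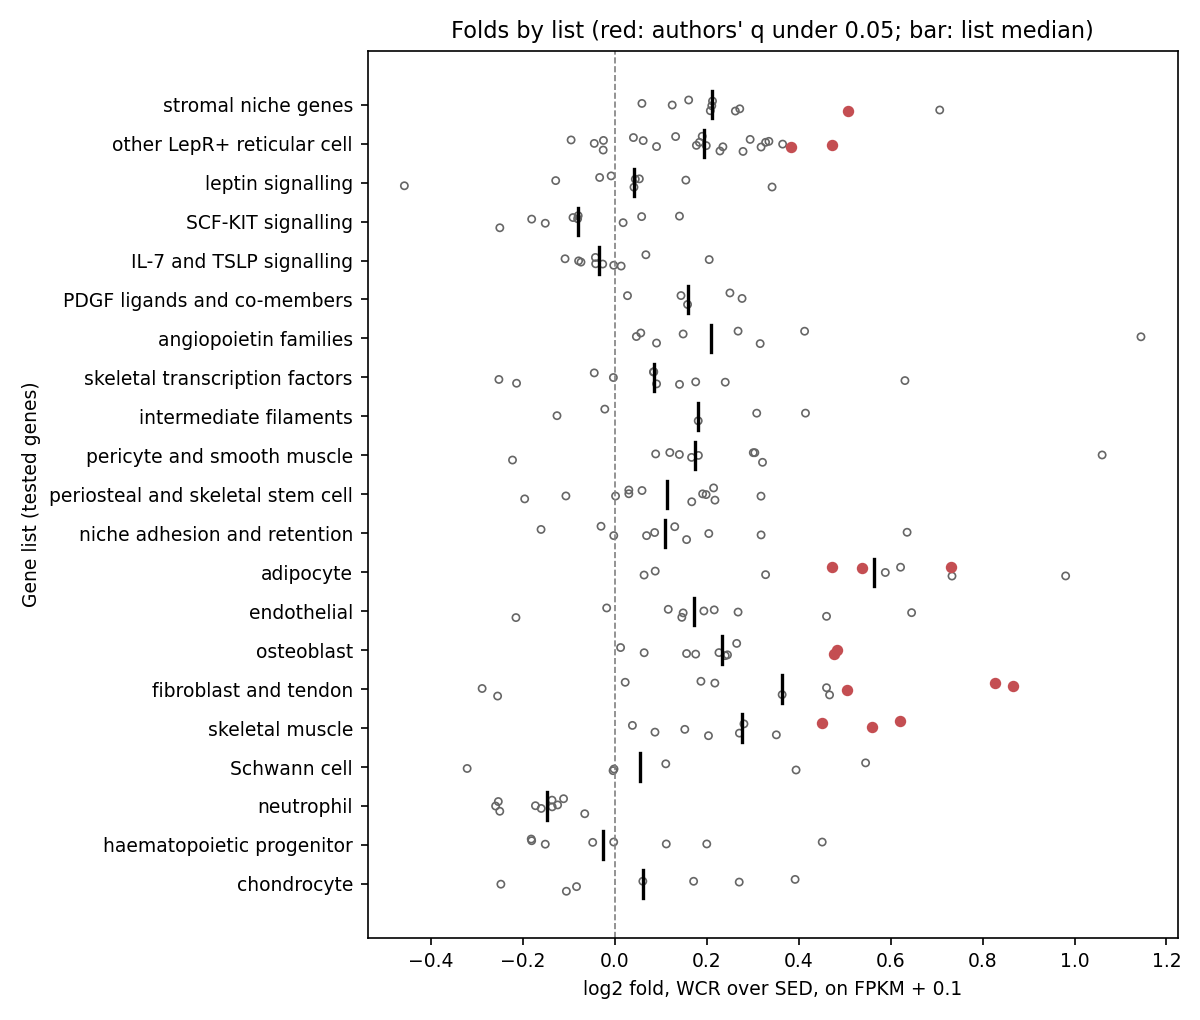
Log2 fold of wheel running over sedentary mice on the FPKM + 0.1 scale for the tested genes of each list (rows); red points have q under 0.05 in the authors' deposited table and black bars are list medians. The niche genes (top row) have a median of 0.21, near those of the osteoblast list, which includes osteocyte genes (0.23), and of endothelial genes (0.17). The niche median lies under that of adipocyte genes (0.56) and above that of neutrophil genes (-0.15).

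Markers of other cell types, of bone and of tissue beside it such as muscle and tendon, had folds on either side of 0. Their part in the folds of the niche genes was not tested. Over all tested genes 48.2% had a fold above 0 and 0.445% were called higher. All 10 tested adipocyte genes had a fold above 0 and 3 were called higher (Adipoq, Cfd and Fabp4), with a median of 0.56, and their summed level was 542 FPKM in WCR and 385 FPKM in SED. Some genes stand in several lists, so the lists are not independent. Adipoq and Lpl are in the adipocyte and reticular cell lists, and Ly6c1 in the endothelial and the fibroblast and tendon lists. The osteoblast list also holds osteocyte genes, among them Sost and Mepe. All 10 of its genes were above 0 (median 0.23, sum 7430 FPKM in WCR and 6967 in SED). Sost and Mepe were the 2 called higher. All 10 skeletal muscle genes were above 0 (median 0.28, sum 2032 FPKM in WCR and 1708 in SED). Of these, Tcap, Myh2 and Myh1 were the 3 called higher. Of 11 fibroblast and tendon genes 9 were above 0 and 3 were called higher, Thbs4, Clec3b and Fmod (median 0.36; sum 748 FPKM in WCR and 635 in SED). Endothelial genes were above 0 in 8 of 10 with no call (median 0.17; sum 237 FPKM in WCR and 211 in SED), and Schwann cell genes in 3 of 6 (median 0.05; sum 63.0 FPKM in WCR and 53.6 in SED). Chondrocyte genes were above 0 in 4 of 7 (median 0.06; sum 284 FPKM in WCR and 290 in SED). Among blood cells, none of 10 neutrophil genes was above 0 (median -0.15; sum 46237 FPKM in WCR and 54258 in SED), and 3 of 8 haematopoietic progenitor genes were (median -0.03; sum 69.8 FPKM in WCR and 70.9 in SED). No Schwann cell, chondrocyte, neutrophil or progenitor gene was called, none of the markers in these cell type lists was at 0 in both groups, and the Schwann cell markers Sox10, Ngfr and Cdh19 were not tested by the authors. The summed level of the 10 niche genes was 145 FPKM in WCR and 118 FPKM in SED.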

How the data were processed

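Femoral RNA was extracted with TRIzol and polyadenylated RNA made into 6 directional libraries, per the labels' protocols. Cufflinks 2.2.1, HISAT2 2.2.1, SAMtools 1.10, Trimmomatic 0.39 and GRCm38 are listed in the submitters' processing notes, with no roles. The authors deposited an FPKM for each group with the bounds of an interval, on the FPKM scale, and, for each gene, a log2 fold, the score of their test, a p-value and a q-value, per the file headers; the scaling of the libraries is not stated there. The group names NS and NW in the headers match the treatment labels of SED and WCR. The replicates are separate mice per the design text, but the tables held 0 columns of single libraries, so the authors' test was used, q under 0.05 among 15508 tested genes. A Benjamini-Hochberg adjustment gave the deposited q to within 5.21e-07. Computed here were log2 folds with a pseudocount of 0.1, standard errors from the intervals, list counts and medians, and alternatives (Python 3.11.15, pandas 2.3.3, scipy 1.17.1), with the code tested on simulated data. Library totals were not at hand; effective depths came from the steps of the lowest FPKM in single-exon genes longer than 1500 bases, with lengths shortened by 255 bases. A further 5 genes without an estimate were left out of totals. Gene positions, transcripts and overlaps are those of GENCODE vM21 on GRCm38. The niche genes, the 11 related lists and the 9 cell type lists were chosen with earlier results of these data known. Named besides the niche genes were direct partners, called list members and, in lists without a call, the most expressed gene and the one with the largest fold at FPKM of at least 1.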

Additional observations from a re-analysis of the deposited data

How the results depend on the processing

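No paired analysis was possible because each group has 1 pooled column without replicate numbers. Leaving out replicates and fits over the 6 libraries were therefore not run, and a difference carried by 1 mouse could not be detected. The 1 niche gene called, Lepr, was still the 1 call with q under 0.1 and with q adjusted over the genes with FPKM of at least 1 (q = 0.0447). With q under 0.01 the count was 0 (Lepr at q = 0.0478 in the authors' deposited table), and it was 0 when the intervals of the groups had to lie apart, since those of Lepr overlap by 7.13 FPKM (a gap of -7.13). It was also 0 when the deposited statistic was read as a normal score and adjusted over all genes (Lepr then had an adjusted value of 1, and 25 genes were called in all), an alternative chosen after seeing the data. That statistic had a standard deviation of 0.62 over the tested genes, narrower than the standard normal score this reading assumes. With unadjusted p under 0.05 the count was 3. The median log2 fold of the niche genes lay between 0.20 and 0.25 over all pseudocounts and scalings, and each of the 10 folds kept its sign; that of Angptl1 ranged from 0.47 to 0.75. Rescaling to the same total raised all folds by 0.04. With q under 0.1, 1 gene was called among leptin signalling genes (Socs3) and 1 among intermediate filament genes (Des), and no other list gained a call. Both were also under 0.05, at 0.0483, with q adjusted over the genes with FPKM of at least 1. With q under 0.01, Gas6, Clec3b and Tcap, each at a q of 0.0283 in the authors' deposited table, would no longer be called. At the estimated depths Angptl1 and Il7 had the fewest fragments of the niche genes, and the widest intervals as a percent of their level.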
